A study of Homo sapiens with 2 samples.

Results

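ICAM1 and the other surface ligands by which leukocytes adhere to a cell were described across 13 populations of ovarian carcinoma cells. The 7 genes were taken by symbol from the 36601 genes of the matrix, and each symbol had 1 row: ICAM1, ICAM2, ICAM3, ICAM4, ICAM5, VCAM1 and CD58. Of the 7, 6 had 30 UMIs (counted mRNA molecules) or more and were compared between populations; ICAM5 was not.

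The cells came from OVCAR5, an established ovarian carcinoma line, carrying a reporter that senses interferon gamma (IFNg) and sorted as CFP-positive bystander cells. The tumours grew in NSG-B2m-/- mice, a strain without T, B and NK cells that keeps myeloid cells, and cytokine was injected into the tumour. Of 13 tumours in the pool, 2 had IFNg (100 ng/ml) together with tumour necrosis factor alpha (TNFa, 10 ng/ml) and were taken after 6 h. TNFa alone, at 10 ng/ml, was given to 3 tumours (6 h), and IFNg alone, at 100 ng/ml, to 2 tumours (24 h) and to 1 tumour (48 h). Unexposed tumours were 2 at 6 h, 2 at 24 h and 1 at 48 h. This list comes from the description of the pool, and the treatment fields of the gene expression and hashtag libraries are at odds with it. All cells shared 1 droplet library, and hashtag antibodies marked the tumours as pairs of hashtags. The sources used here do not say which pair marked which tumour. The 13 populations are therefore named by their hashtags, and exposed and unexposed tumours were not compared. With a single library and unmapped pairs, no test was made. All intervals are 95% intervals that cover counting error only.

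ICAM1 is the ligand of the leukocyte integrins LFA-1 and Mac-1, and it holds T cells and myeloid cells on endothelium and on target cells. Its gene is a textbook target of NF-kB, which TNFa activates, and it is also induced by IFNg. VCAM1 is the ligand of the integrin VLA-4 and is known as an NF-kB target in endothelium. ICAM2 and ICAM3 also bind LFA-1; ICAM2 is known from endothelium and ICAM3 from resting leukocytes. ICAM4 is a blood group antigen of red cells, ICAM5 is a protein of neurons, and CD58 is the ligand of CD2 on T and NK cells.

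ICAM1 spans chr19:10270835-10286615 on the plus strand (GRCh38, GENCODE 29). ICAM4 (chr19:10286967-10288522) and ICAM5 (chr19:10289981-10296778) follow it on the same strand, and ICAM3 (chr19:10333776-10339823) lies further along on the minus strand. ICAM2 is on chromosome 17 (chr17:64002594-64020634, minus). VCAM1 (chr1:100719742-100739045, plus) and CD58 (chr1:116514535-116571039, minus) are on chromosome 1.

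The promoters of ICAM1, VCAM1 and ICAM4 are shown because these 3 genes had the widest ranges over the populations. Each runs from 250 bases before to 50 bases after the start site in RefSeq (GRCh38.p14; ICAM1 chr19:10270870-10271169, VCAM1 chr1:100719492-100719791, ICAM4 chr19:10286705-10287004, all plus strand). Capitals mark matches on either strand to an NF-kB-like motif (GGNNNTTCC), a gamma-activated-site-like motif (TTCNNNGAA) or an interferon-stimulated-response-element-like motif.
ICAM1: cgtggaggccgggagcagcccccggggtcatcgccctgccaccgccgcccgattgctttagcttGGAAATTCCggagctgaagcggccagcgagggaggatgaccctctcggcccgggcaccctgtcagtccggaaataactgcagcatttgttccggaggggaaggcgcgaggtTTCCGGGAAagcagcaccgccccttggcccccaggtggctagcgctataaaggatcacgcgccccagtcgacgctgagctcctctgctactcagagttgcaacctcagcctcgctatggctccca
VCAM1: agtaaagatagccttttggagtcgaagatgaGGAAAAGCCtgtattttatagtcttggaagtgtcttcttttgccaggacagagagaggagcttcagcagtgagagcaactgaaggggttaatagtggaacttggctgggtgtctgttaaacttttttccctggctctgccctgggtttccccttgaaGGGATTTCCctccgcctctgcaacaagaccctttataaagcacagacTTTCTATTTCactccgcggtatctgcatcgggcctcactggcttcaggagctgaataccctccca
ICAM4: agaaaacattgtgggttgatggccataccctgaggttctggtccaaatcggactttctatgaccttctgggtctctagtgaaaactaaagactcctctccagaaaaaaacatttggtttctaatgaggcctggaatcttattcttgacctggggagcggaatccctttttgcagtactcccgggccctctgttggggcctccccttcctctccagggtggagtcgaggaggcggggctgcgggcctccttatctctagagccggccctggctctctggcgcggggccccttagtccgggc
The ICAM1 window held 1 NF-kB-like match, GGAAATTCC, with its first base at -186 from the start site. It also held 1 gamma-activated-site-like match, TTCCGGGAA, at -75. The VCAM1 window held a pair of NF-kB-like matches, GGAAAAGCC at -219 and GGGATTTCC at -62, and an interferon-stimulated-response-element-like match, TTTCTATTTC, at -15. No gamma-activated-site-like match was in the VCAM1 window, and none of the 3 motifs was in the ICAM4 window. Of 34943 promoters of the same length, 20.0% held the NF-kB-like motif, 7.66% the gamma-activated-site-like motif, 3.57% the interferon-stimulated-response-element-like motif and 1.51% both of the first pair. Promoters were matched for 6 members. NF-kB-like matches were also in the CD58 window (GGAAGGGCC at -81) and in an ICAM3 window (GGAAGGTCC at -7). The motif was thus not limited to members with the widest ranges. A match is a run of letters and not a measured binding site.

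The matrix held 9083 barcodes and 64826985 gene UMIs; 3611 barcodes (39.8%) passed a cell filter of at least 500 genes and mitochondrial UMIs of 20% or less. Of these, 2994 cells fell into the 13 populations, with 110 to 507 cells and 765923 to 5058403 UMIs each; 24.3% (HTO3+HTO6) to 58.2% (HTO4+HTO7) of a population's barcodes passed. Epithelial markers summed to 3878 to 7568 CPM (UMIs per 1000000), and all 10 of 10 were detected with 30 UMIs or more. The sparsest were MUC16 (79 UMIs, in 1.90% of cells), CDH1 (80 UMIs) and PAX8 (293 UMIs, in 9.12% of cells). Endothelial markers summed to 0 to 6.87 CPM; KDR, TEK and ERG were at 0 and 1 of 8 had 30 UMIs or more, PECAM1 (101 UMIs). Fibroblast markers summed to 1.01 to 36.8 CPM; THY1 was at 0 and 1 of 8 had 30 UMIs or more, COL1A1 (99 UMIs). Leukocyte markers summed to 10.1 to 33.0 CPM; 3 of 12, CD3E and MS4A1 among them, were at 0. The 4 leukocyte markers with 30 UMIs or more were LYZ (295 UMIs, in 5.68% of cells), CD14 (215, in 6.45%), ITGB2 (78) and TYROBP (72), while PTPRC, the pan-leukocyte marker, had 10. The epithelial sum was lowest and the leukocyte sum highest in populations that results below turn on: 3878 CPM epithelial in HTO2+HTO8 and 33.0 CPM leukocyte in HTO2+HTO9, where the sums of the endothelial list were 1.62 and 0.388 CPM. The part of these values in the results was not tested.

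Between the highest and the lowest population, 4 of the 6 compared members differed 4-fold or more, beside 29.9% of 13596 genes with 30 UMIs or more. The ratios, with 0.5 UMI added to each count, were 80.2 for ICAM4, 45.7 for ICAM1, 19.1 for VCAM1, 4.22 for CD58, 2.31 for ICAM2 and 2.22 for ICAM3. Their median was 11.7, beside 2.60 over the 13596 genes. The CD58 ratio rests on 7 UMIs in the lowest population, HTO4+HTO9, and was under 4-fold in 4 of the 8 other settings, with 3.73 under the looser cell filter, 3.65 with no filter, 3.91 on the median-of-ratios scale and 3.09 under the stricter filter. In those 4 settings the count was 3 members; under the stricter filter ICAM4 also left it, with 10 UMIs, and ICAM3 entered it. The ICAM1 and VCAM1 ratios stayed past 4-fold in all 8, from 32.9 to 64.6 for ICAM1 and from 15.3 to 22.3 for VCAM1. Since genes with few UMIs often pass 4-fold by counting error, the count was repeated over genes with 300 UMIs or more: ICAM1, VCAM1 and CD58 passed, beside 8.17% of 8015 genes. UMIs at the 3' end are not scaled per length, so levels are compared between populations of 1 gene and not between genes.

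ICAM1 was highest in the populations that carried HTO2. It reached 987 CPM (943 to 1034) in HTO2+HTO8 and 1261 CPM (1218 to 1305) in HTO2+HTO9. In the remaining HTO2 populations it was 294 CPM in HTO2+HTO5, 903 CPM (872 to 934) in HTO2+HTO6 and 882 CPM (852 to 914) in HTO2+HTO7. All 5 HTO2 populations lay above every other population, and HTO2+HTO5 stood well under the other 4. HTO4+HTO8 had 146 CPM (127 to 167) and HTO4+HTO9 had 212 CPM (180 to 247), while HTO4+HTO6 had 49.2 CPM and HTO4+HTO7 had 34.7 CPM. The HTO3 populations had 71.2 CPM (HTO3+HTO5), 56.4 CPM (HTO3+HTO6), 27.2 CPM (HTO3+HTO7) and 66.3 CPM (HTO3+HTO9). Within HTO2 and within HTO4, the populations with HTO8 or HTO9 were thus higher than those with HTO6 or HTO7. Within HTO4 this held in all 8 other settings of cell filter, hashtag rule and scale, and within HTO2 in 7 of the 8; among all genes, 19.5% had this order within HTO4 and 16.4% within HTO2. ICAM1 and ICAM2 exceeded all 11 other populations in HTO2+HTO8, as 7.24% of genes did, and ICAM1, ICAM2 and ICAM4 exceeded them in HTO2+HTO9, as 7.69% of genes did.

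**Figure D1:**
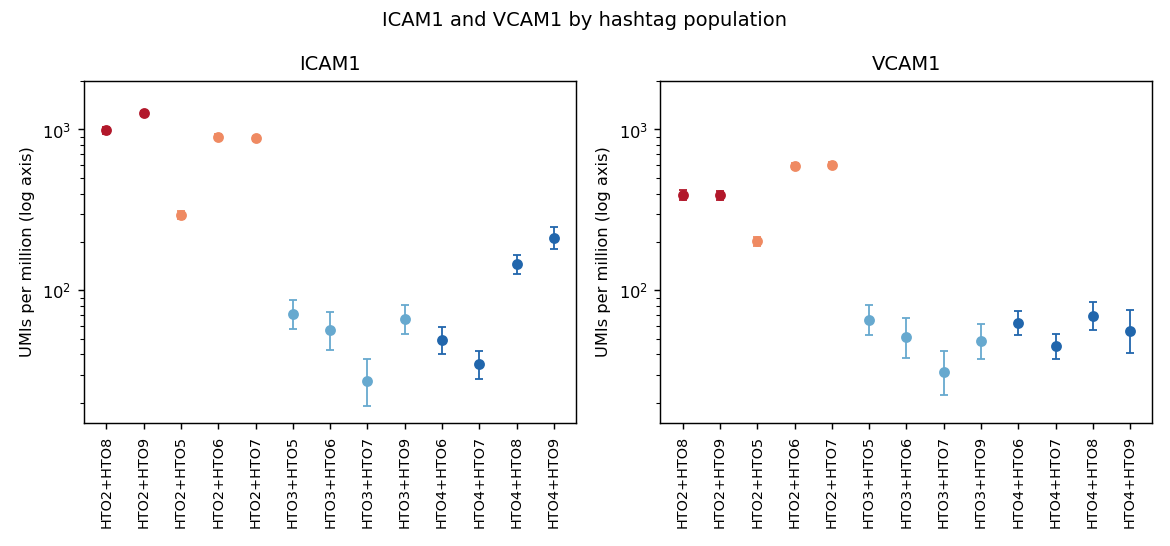
ICAM1 (left) and VCAM1 (right) in CPM on a log axis, for each of the 13 populations; points are sums over the cells of a population and bars are exact Poisson 95% intervals. ICAM1 was highest in HTO2+HTO9 (1261 CPM) and VCAM1 in HTO2+HTO7 (598 CPM), and in ICAM1, unlike VCAM1, HTO4+HTO8 and HTO4+HTO9 stood apart from HTO4+HTO6 and HTO4+HTO7.

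Ordered by ICAM1, 7 of the 12 steps between neighbouring populations exceeded counting error. Cells of a population varied more than counting error gives. With each cell thinned to 4000 UMIs, the variance of ICAM1 UMIs was 2.39 times the mean in HTO2+HTO8, 3.53 in HTO2+HTO9 and 2.44 in HTO2+HTO6. The intervals leave out this spread and are too narrow for differences between sampled cells. The level in HTO2+HTO9 was 1.28 times that in HTO2+HTO8 (1.21 to 1.35) and 1.40 times that in HTO2+HTO6 (1.33 to 1.47). HTO2+HTO8 was 1.09 times HTO2+HTO6 (1.03 to 1.16), but this ratio was 0.916 with a filter of at least 1000 genes and 10% mitochondrial UMIs or less, and 1.01 with a maximum of 50% or with no filter. HTO2+HTO6 and HTO2+HTO7 did not differ beyond counting error (ratio 1.02, 0.974 to 1.07). The widest step was from HTO2+HTO7 to HTO2+HTO5, with an interval of 2.82 to 3.19 for the ratio. HTO4+HTO8 was 2.97 times HTO4+HTO6 (2.35 to 3.79) and 4.21 times HTO4+HTO7 (3.31 to 5.39). HTO4+HTO9 was 4.30 times HTO4+HTO6 (3.35 to 5.55) and 6.10 times HTO4+HTO7 (4.73 to 7.90). Among the 4 HTO3 populations, HTO3+HTO7 was the lowest and the other 3 did not differ from each other beyond counting error.

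VCAM1 was also highest in the HTO2 populations, but in another order. It had 393 CPM (365 to 423) in HTO2+HTO8 and 391 CPM (367 to 416) in HTO2+HTO9. It had 202 CPM (190 to 215) in HTO2+HTO5, 594 CPM (570 to 620) in HTO2+HTO6 and 598 CPM (573 to 624) in HTO2+HTO7. HTO2+HTO8 and HTO2+HTO9 thus lay under HTO2+HTO6 and HTO2+HTO7, the reverse of ICAM1. Their ratios to those populations ran from 0.653 to 0.662, and they stayed under both in all 8 other settings, with a lowest ratio of 0.349 (HTO2+HTO9, stricter filter). Outside HTO2, VCAM1 ran from 30.9 CPM (HTO3+HTO7) to 69.4 CPM (HTO4+HTO8), and HTO4+HTO9, with 56.1 CPM, lay between HTO4+HTO6 (63.1 CPM) and HTO4+HTO7 (45.0 CPM). With a maximum of 50% mitochondrial UMIs or with no filter, both HTO4+HTO8 and HTO4+HTO9 lay above that pair. Of the 12 steps in its order, 4 exceeded counting error.

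The number of ICAM1 UMIs per VCAM1 UMI, which does not depend on the scale to a population's total, set these populations apart. It was 2.51 (2.30 to 2.74) in HTO2+HTO8 and 3.23 (3.01 to 3.47) in HTO2+HTO9. In HTO4+HTO8 it was 2.11 (1.66 to 2.69) and in HTO4+HTO9 3.77 (2.68 to 5.40), the latter on 43 VCAM1 UMIs. It was 1.45 in HTO2+HTO5, 1.52 in HTO2+HTO6 and 1.48 in HTO2+HTO7, and between 0.771 and 1.37 in the other 6 populations. The 4 populations with HTO8 or HTO9 beside HTO2 or HTO4 had the highest ratios, and HTO3+HTO9 (1.37) did not. These ratios are of the cells that passed. In barcodes above the filter's maximum of mitochondrial UMIs, HTO4+HTO8 had 182 ICAM1 and 149 VCAM1 UMIs, and HTO4+HTO9 118 and 87. HTO2+HTO6 had 2935 and 2461 there, so the HTO4 populations stood less far apart from it. HTO2+HTO8 (812 and 423) and HTO2+HTO9 (2027 and 793) still stood well apart.

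**Figure D2:**
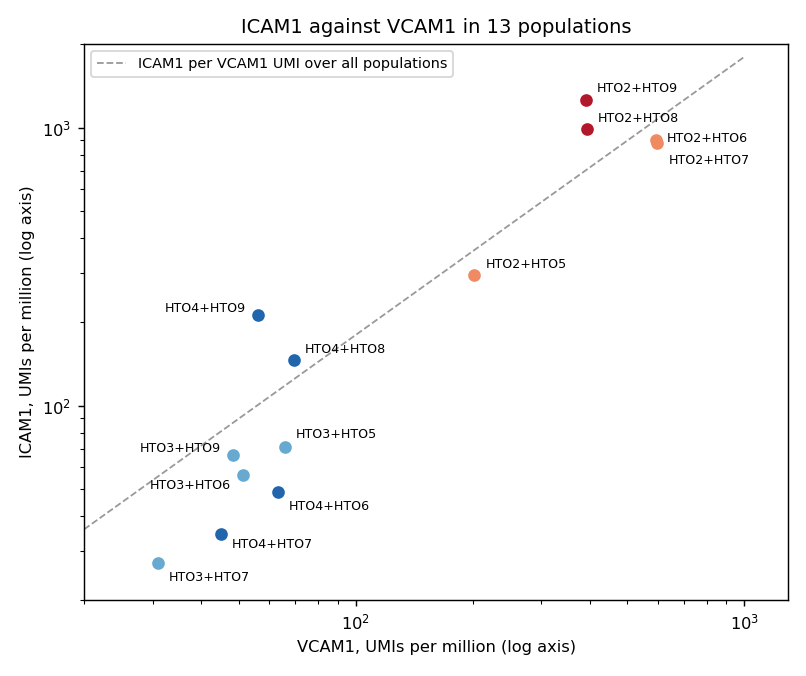
ICAM1 against VCAM1 in CPM, both on log axes, 1 point per population; the dashed line is the ratio over all populations, 1.80 ICAM1 UMIs per VCAM1 UMI. HTO2+HTO8, HTO2+HTO9, HTO4+HTO8 and HTO4+HTO9 lie above the line and the other 9 populations below it.

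The levels in HTO2+HTO8 and HTO2+HTO9 were then set against sums of other populations, which were chosen with earlier results of these data known. A sum was the level in HTO2+HTO5, HTO2+HTO6 or HTO2+HTO7, plus that in HTO4+HTO8 or HTO4+HTO9, less the median of the 11 other populations (71.2 CPM for ICAM1). No label says that these populations held the single cytokines. With HTO2+HTO6 or HTO2+HTO7 in the sum, the 4 sums for ICAM1 ran from 957 to 1043 CPM. HTO2+HTO8, at 987 CPM, was 0.947 to 1.03 times these sums, and all 4 intervals held 1. HTO2+HTO9, at 1261 CPM, was 1.21 to 1.32 times these sums, and all 4 intervals lay above 1. With HTO2+HTO5 in the sum, HTO2+HTO8 was 2.68 times (HTO4+HTO8) and 2.27 times (HTO4+HTO9) the sum, and HTO2+HTO9 was 3.42 and 2.90 times it. ICAM1 in HTO2+HTO8 therefore did not differ from the 4 larger sums beyond counting error, and in HTO2+HTO9 it exceeded all 6.

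VCAM1 did not reach the larger sums. Its 4 sums with HTO2+HTO6 or HTO2+HTO7 ran from 587 to 604 CPM. HTO2+HTO8 was 0.651 to 0.670 times them and HTO2+HTO9 was 0.646 to 0.665 times them, below 1 beyond counting error in every case. Against the pair of sums with HTO2+HTO5, VCAM1 was 1.89 and 2.01 times the sum in HTO2+HTO8 and 1.87 and 2.00 times it in HTO2+HTO9.

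**Figure D3:**
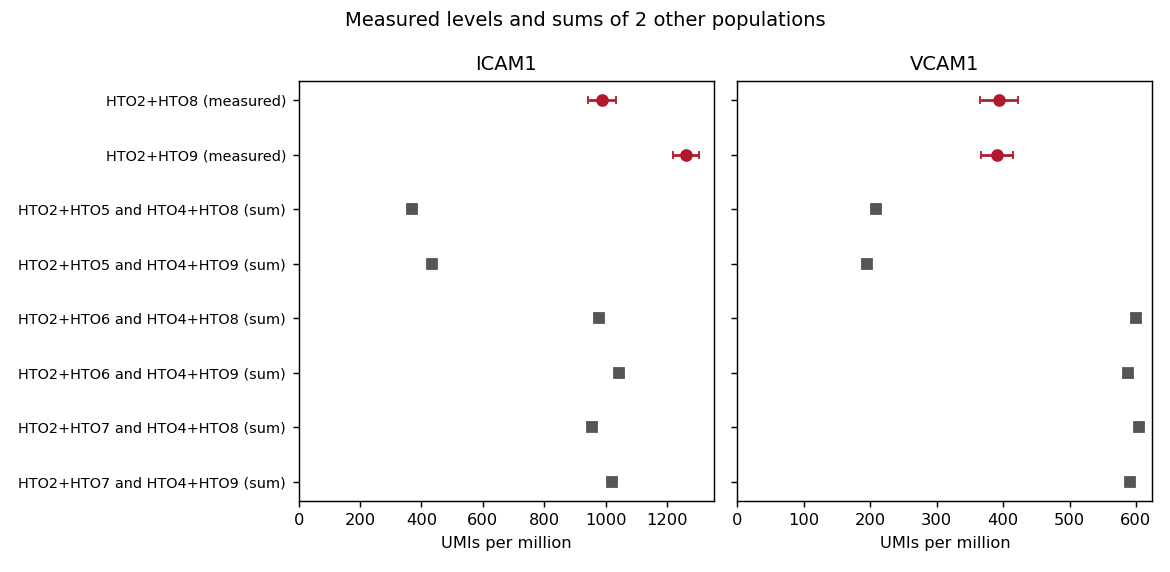
Levels of ICAM1 (left) and VCAM1 (right) in CPM, measured in HTO2+HTO8 and HTO2+HTO9 (circles with exact Poisson 95% intervals) and as the 6 sums of other populations less their median (squares). ICAM1 in HTO2+HTO9 lies right of all 6 squares, and VCAM1 in both populations lies left of the 4 larger squares.

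No choice among the other 11 populations enters when all 55 plain sums of a pair of them are used, with nothing subtracted. HTO2+HTO8 and HTO2+HTO9 themselves were still chosen with earlier results known. ICAM1 in HTO2+HTO8 exceeded 48 of the 55 and in HTO2+HTO9 54; the 1 sum that reached HTO2+HTO9 was that of HTO2+HTO6 and HTO2+HTO7 (1785 CPM). VCAM1 exceeded 36 of the 55 in both populations, although it lay under its 4 larger sums above. NFKBIA and TNFAIP3, described below, also exceeded 36 in both, and CXCL10 and GBP1 exceeded all 55. A count of 36 thus does not mean a level above the additive sums, and no share over all genes is given for these counts. Over the mean of the 6 sums, ICAM1 was 1.23-fold in HTO2+HTO8 and 1.58-fold in HTO2+HTO9, and VCAM1 was 0.847-fold and 0.841-fold. Among all genes, 10.6% were 1.5 times that mean or more in HTO2+HTO8 and 12.2% in HTO2+HTO9, while 23% in HTO2+HTO8 and 19.9% in HTO2+HTO9 were under it by the same factor. Of 2 companion genes of the interferon response, both had higher ratios than ICAM1. CXCL10, a chemokine for T cells, was 10.0 times its mean sum in HTO2+HTO8 and 10.7 times in HTO2+HTO9, and GBP1, a guanylate-binding GTPase, was 3.24 and 2.94 times. NFKBIA, the inhibitor of NF-kB, was at 0.629 in HTO2+HTO8 and 0.827 in HTO2+HTO9, and TNFAIP3, the deubiquitinase A20, at 0.645 and 0.716. Both genes, like VCAM1, lay under the 4 sums with HTO2+HTO6 or HTO2+HTO7 and above the 2 with HTO2+HTO5, beyond counting error. On this ratio ICAM1 lay between CXCL10 and GBP1 on one side and NFKBIA and TNFAIP3 on the other.

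ICAM4, the red-cell member next to ICAM1, had only 98 UMIs in all. It had 13 UMIs in HTO2+HTO8 (7.03 CPM, 3.74 to 12.0) and 35 in HTO2+HTO9 (13.6 CPM, 9.46 to 18.9). HTO2+HTO6 had 32 UMIs (8.73 CPM), HTO2+HTO7 had 14 (3.93 CPM) and HTO2+HTO5 had 2 (0.395 CPM), while HTO4+HTO8 and HTO4+HTO9 had 1 each. The 6 remaining populations had none. Nearly all ICAM4 UMIs were thus in the 4 populations with the most ICAM1. Those 6 populations were pooled because they had no ICAM4 UMI, and 3 counts over their 10067746 UMIs would be 0.298 CPM. Against that value, ICAM4 was 23.6-fold higher in HTO2+HTO8 and 45.6-fold higher in HTO2+HTO9. HTO2+HTO9 was 3.45 times HTO2+HTO7 (1.81 to 6.95) and, within counting error, level with HTO2+HTO6 (1.56, 0.936 to 2.60). These values are of the cells that passed. In barcodes above the filter's maximum of mitochondrial UMIs, each of those 6 populations had ICAM4, from 0.590 CPM (HTO3+HTO7) to 1.76 CPM (HTO4+HTO6). All 6 thus lay above 0.298 CPM there. In the same barcodes HTO2+HTO8 had 5.80 CPM, and HTO2+HTO9 had 19.0 CPM (12.7 to 27.3) beside 15.5 CPM (10.8 to 21.5) in HTO2+HTO7. ICAM4 starts 352 bases after the annotated end of ICAM1 on the same strand, and the antisense gene AC011511.5 (32 UMIs) overlaps both. The sources used here do not say how the counting used strand, so the assignment of these UMIs to ICAM4 is uncertain.

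ICAM2, the endothelial ligand of LFA-1, varied little. Its lowest level was 37.3 CPM (HTO3+HTO6), its median 55.9 CPM and its highest 87.0 CPM (74.1 to 102) in HTO2+HTO8, followed by 69.1 CPM in HTO2+HTO9. The highest was 2.34 times the lowest (1.63 to 3.44), and 1 of 12 steps exceeded counting error, that from HTO2+HTO8 to HTO2+HTO9. Both populations lay above HTO2+HTO6 (62.4 CPM) and HTO2+HTO7 (68.5 CPM), as 16.4% of genes did, although HTO2+HTO9 was 1.01 times HTO2+HTO7 (0.826 to 1.23). That order did not hold in 4 of the 8 other settings.

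ICAM3, the leukocyte member, ran from 7.57 CPM (4.14 to 12.7) in HTO2+HTO8 through a median of 14.3 CPM to 17.2 CPM (12.1 to 23.6) in HTO4+HTO6. None of its 12 steps exceeded counting error, but HTO2+HTO8 was lower than 8 of the other 12 populations beyond it, by ratios such as 0.487 (0.251 to 0.885) to HTO2+HTO6. HTO2+HTO9 had 14.4 CPM, close to the median. ICAM5 had 4 UMIs in all the cells, with 0 in HTO2+HTO8 and in HTO2+HTO9, where 3 counts would be 1.62 and 1.16 CPM.

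**Figure D4:**
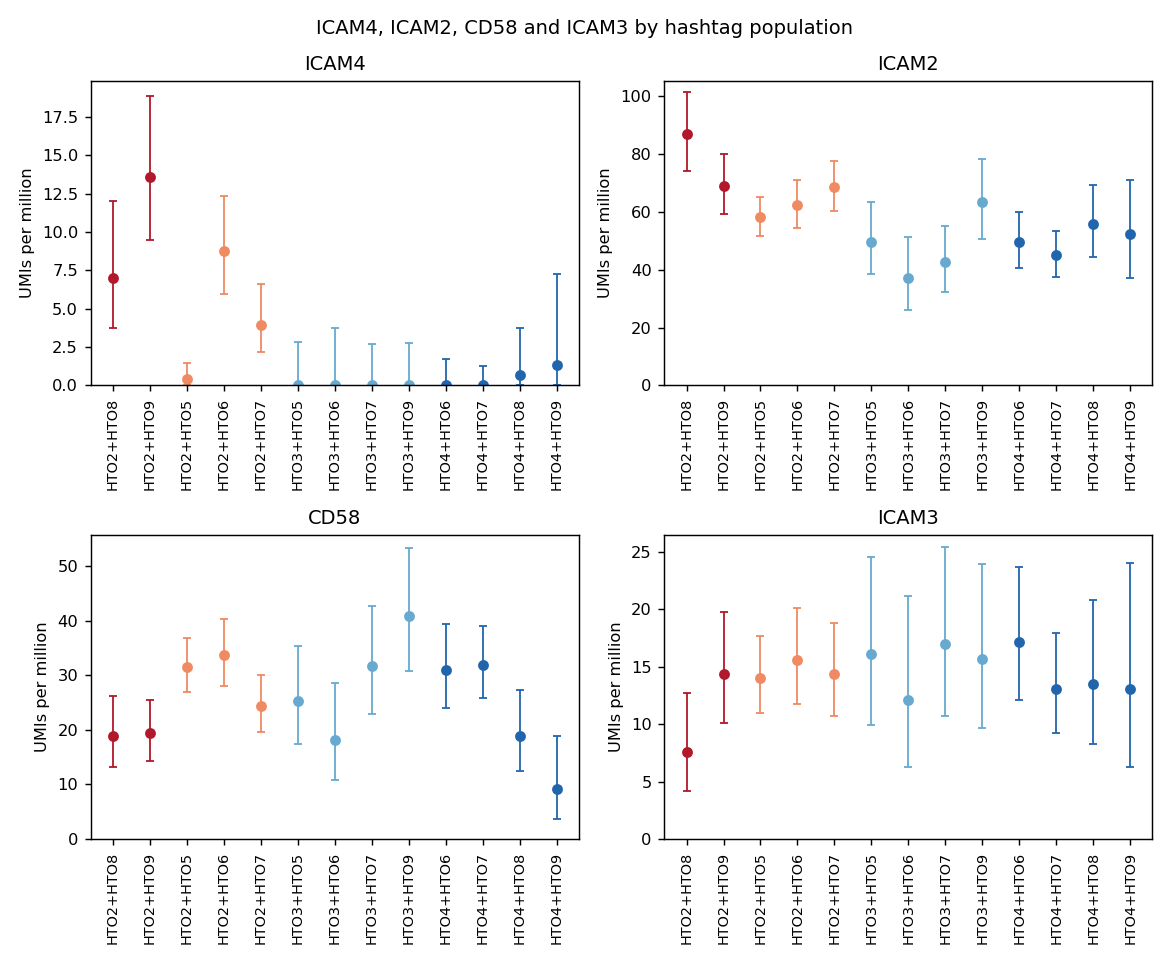
ICAM4, ICAM2, CD58 and ICAM3 in CPM (linear axes from 0) in the 13 populations; points are sums over cells and bars are exact Poisson 95% intervals. ICAM4 has its UMIs in HTO2 populations, with 1 UMI each in HTO4+HTO8 and HTO4+HTO9, ICAM2 peaks at 87.0 CPM in HTO2+HTO8, and CD58 is lowest at 9.14 CPM in HTO4+HTO9.

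CD58, the ligand of CD2, had another order. It had 18.9 CPM (13.2 to 26.3) in HTO2+HTO8 and 19.4 CPM (14.4 to 25.6) in HTO2+HTO9, against 31.6 CPM in HTO2+HTO5, 33.8 CPM in HTO2+HTO6 and 24.4 CPM in HTO2+HTO7. In HTO4+HTO8 it had 18.9 CPM (12.5 to 27.3) and in HTO4+HTO9 9.14 CPM (3.67 to 18.8), against 31.1 CPM in HTO4+HTO6 and 31.9 CPM in HTO4+HTO7. HTO3 populations ran from 18.1 CPM (HTO3+HTO6) to 41.0 CPM (HTO3+HTO9). Within both HTO2 and HTO4, the populations with HTO8 or HTO9 lay under those with HTO6 or HTO7, as 32% of genes did within HTO2 and 33.9% within HTO4. The ratio to HTO2+HTO6 was 0.559 (0.373 to 0.820) in HTO2+HTO8 and 0.574 (0.405 to 0.803) in HTO2+HTO9, while the intervals of their ratios to HTO2+HTO7 held 1. HTO4+HTO8 was 0.607 times HTO4+HTO6 (0.376 to 0.957) and HTO4+HTO9 was 0.294 times (0.114 to 0.640). With the stricter filter the groups overlapped within both HTO2 and HTO4. Over the 13 populations, log2 levels of CD58 correlated with those of GBP1 at r = -0.61 and of ICAM1 at r = -0.27; the populations share 1 library, and these are descriptions.

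In single cells, ICAM1 was found in 97.8% of cells of HTO2+HTO8 (94.6 to 99.4) and 97.1% of HTO2+HTO9 (94.1 to 98.8). The shares were 71.4% in HTO2+HTO5, 95.7% in HTO2+HTO6 and 86.6% in HTO2+HTO7. They were 53.8% in HTO4+HTO8 and 62.7% in HTO4+HTO9, and 20.9% (HTO3+HTO7) to 40.7% in the other 6 populations. No cell type that should lack ICAM1 was at hand for a background share, so the share in HTO3+HTO7, at a median of 9094 UMIs per cell (9147 in HTO2+HTO8), is the lowest that can be given.

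Cells thinned to 4000 UMIs, which left out 186 of 2994 cells, give shares at equal depth. They were 90.5% in HTO2+HTO8, 91.8% in HTO2+HTO9, 53.1% in HTO2+HTO5, 89.9% in HTO2+HTO6 and 80.2% in HTO2+HTO7. At 5 ICAM1 UMIs or more, the shares were 41.3% in HTO2+HTO8 and 45.1% in HTO2+HTO9, against 31.3% in HTO2+HTO6 and 35.0% in HTO2+HTO7. At 10 or more they were 4.47% and 15.5% in HTO2+HTO8 and HTO2+HTO9, against 4.06% in HTO2+HTO6 and 8.38% in HTO2+HTO7. HTO2+HTO8 and HTO2+HTO9 had nearly equal shares of cells with any ICAM1, and the higher level in HTO2+HTO9 lay in its upper tail. HTO2+HTO7 had more cells without ICAM1 than HTO2+HTO6 and also more at 10 UMIs or more, at about the same summed level. Before thinning, the median cell had 9 ICAM1 UMIs in HTO2+HTO8, 10 in HTO2+HTO9, 2 in HTO2+HTO5 and 7 in HTO2+HTO6 and HTO2+HTO7; the highest cell had 70, in HTO2+HTO9.

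**Figure D5:**
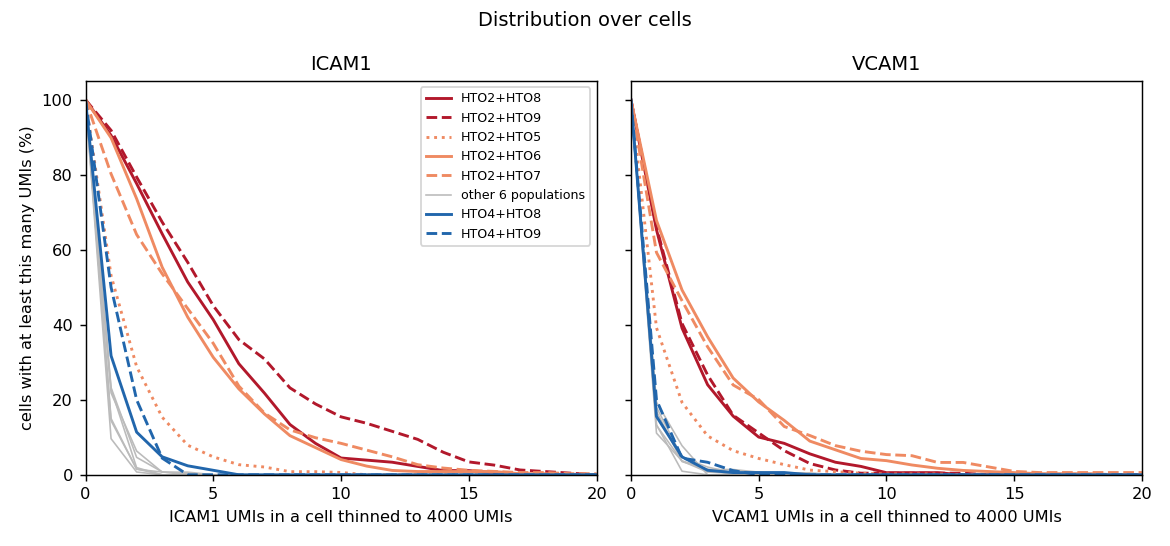
Percent of cells with at least the given number of ICAM1 (left) or VCAM1 (right) UMIs after each cell was thinned to 4000 UMIs, 1 line per population. For ICAM1 the HTO2+HTO9 line has the longest tail (15.5% of cells at 10 UMIs or more), and for VCAM1 the lines of HTO2+HTO8 and HTO2+HTO9 lie under those of HTO2+HTO6 and HTO2+HTO7 from 2 to 12 UMIs.

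VCAM1 was found in 87.0% of cells of HTO2+HTO8 and 77.6% of HTO2+HTO9, against 53.5% in HTO2+HTO5, 78.7% in HTO2+HTO6 and 69.0% in HTO2+HTO7. After thinning, the shares were 65.4% in HTO2+HTO8 and 66.1% in HTO2+HTO9, against 67.8% in HTO2+HTO6 and 59.3% in HTO2+HTO7. The lower summed level of VCAM1 in HTO2+HTO8 and HTO2+HTO9 was thus not matched by a lower share of cells with VCAM1. The highest VCAM1 count of a thinned cell was 12 in HTO2+HTO8 and 13 in HTO2+HTO9, against 18 in HTO2+HTO6 and 31 in HTO2+HTO7.

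Over the cells of a population, thinned to equal depth, ICAM1 correlated with VCAM1 at r = 0.300 in HTO2+HTO8 (179 cells), 0.246 in HTO2+HTO9 (233 cells), 0.200 in HTO2+HTO5, 0.0648 in HTO2+HTO6 and 0.379 in HTO2+HTO7. With CXCL10, the r of ICAM1 was 0.455 in HTO2+HTO8 and 0.497 in HTO2+HTO9, and 0.0908 to 0.202 in the other 3 HTO2 populations. Outside HTO2 it ran from -0.103 (HTO3+HTO6) to 0.300 (HTO4+HTO9). With GBP1 it was 0.369 and 0.494 in HTO2+HTO8 and HTO2+HTO9, and 0.108 to 0.229 in the other 3. Outside HTO2 it then ran from -0.0816 (HTO4+HTO6) to 0.153 (HTO4+HTO9). With NFKBIA it was at most 0.280 in any of the 13 populations. The cells share the library and the counts are sparse, more so for CXCL10 and GBP1 in the populations where those genes were low, so the values are descriptions. With ICAM2 and CD58 the median r over populations was -0.0043 and 0.0185.

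The 10 genes whose log2 levels over the 13 populations were most like those of ICAM1, of 8015 with 300 UMIs or more, were SOD2 (r = 0.98), PSMA6, DRAM1, SAA2, ASS1, MIR155HG, CFB, KIAA0040, CHI3L2 and BCL2A1 (r = 0.95). SOD2 is the mitochondrial superoxide dismutase, CFB is complement factor B, MIR155HG is the host of a microRNA, and BCL2A1 is an anti-apoptotic BCL2 relative. SAA2 shares sequence with SAA1, so its UMIs are uncertain. SOD2 had 1071 CPM in HTO2+HTO8 and 1297 CPM in HTO2+HTO9, against 1460 CPM in HTO2+HTO6 and 1120 CPM in HTO2+HTO7. VCAM1 ranked 23rd (r = 0.94), and CD58 (r = -0.27) was far down. The list depended on the measure: 3 of the 10 were among the top 10 by Spearman correlation, and 5 among the top 10 of genes with 1000 UMIs or more. The genes most like VCAM1 were RELB (r = 0.98), TNFAIP2 and TNIP1, with ICAM1 27th.

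Of 25 other adhesion and contact ligands, 20 had 30 UMIs or more and 7 of them ranged 4-fold or more: CX3CL1, PECAM1, CDH1, MADCAM1, CD47, L1CAM and JAM3. Among all genes with 30 UMIs or more, 29.9% did, so the count is near the general share. The median range of the 20 was 2.26-fold, beside 2.60 over all genes. Only CX3CL1, CD47 and JAM3 had 300 UMIs or more. CX3CL1, a membrane-bound chemokine that captures leukocytes, had 78.4 CPM in HTO2+HTO8 and 119 CPM in HTO2+HTO9, against 6.72 CPM in HTO2+HTO5, 25.4 CPM in HTO2+HTO6 and 27.2 CPM in HTO2+HTO7. It had 12.8 CPM in HTO4+HTO8 and 11.8 CPM in HTO4+HTO9, and 1.01 to 4.64 CPM elsewhere. CD47, the signal against phagocytosis, had 349 CPM in HTO2+HTO8 and 274 CPM in HTO2+HTO9, against 233 CPM in HTO2+HTO6 and 192 CPM in HTO2+HTO7. CX3CL1 and CD47 were thus higher in HTO2+HTO8 and HTO2+HTO9 than in HTO2+HTO6 and HTO2+HTO7, as ICAM1 was and VCAM1 was not. Among all genes, 16.4% had this order. CEACAM1 of the same list, which ranged 3.16-fold, had it too. It had 57.3 CPM in HTO2+HTO8 and 78.4 CPM in HTO2+HTO9, against 30.3 CPM in HTO2+HTO6 and 32.6 CPM in HTO2+HTO7. JAM3, a junction protein, ran the other way, with 4.86 CPM in HTO2+HTO8 and 20.1 CPM in HTO3+HTO6. SELE and CD48 had no UMI.

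The 8 genes that anchor ICAM1 to the cytoskeleton or shed it, such as EZR, MSN and ADAM17, all passed 30 UMIs, and 0 of 8 ranged 4-fold or more (median 1.81-fold). Of 12 factors that bind the ICAM1 promoter or limit them, 7 did, among them IRF1, SOCS1, TNFAIP3, NFKBIA, RELB and NFKB2 (median of the 12, 5.86-fold). The share over all genes with 30 UMIs or more was 29.9%. Every gene of these 2 lists had more than 300 UMIs, and over genes with 300 UMIs or more the share was 8.17%. Against that share, 0 of 8 is not unusual. IRF1, a transcription factor induced by IFNg, had 1515 CPM in HTO2+HTO8 and 1917 CPM in HTO2+HTO9, against 354 CPM in HTO2+HTO6 and 275 CPM in HTO2+HTO7, and it had 975 CPM in HTO4+HTO8. RELB, an NF-kB subunit, had 84.3 CPM in HTO2+HTO8 and 90.8 CPM in HTO2+HTO9, against 96.8 CPM in HTO2+HTO6 and 94.6 CPM in HTO2+HTO7. Of the 10 receptor genes of the members, 3 had 30 UMIs or more. ITGB2, the chain that LFA-1 and Mac-1 share, had 78 UMIs, and ITGAX had 32; both ranged 4-fold or more on these few counts. ITGB1 had 18839 UMIs and ranged 1.72-fold, and CD2 had none.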

How the data were processed

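Gene expression was measured in 1 pooled droplet library of 13 OVCAR5 tumours with a matching hashtag library. The authors deposited whole-number UMI counts of 36601 genes and 10 hashtags in 9083 barcodes, not normalised. Per the file headers the software was Cell Ranger 5.0.1, whereas version 2.1.1 (with GRCh38) stands in the submitters' processing notes. The annotation behind the counts was not given in the sources used here.

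A barcode was given to the pair of its highest hashtags among HTO2 to HTO9 where the second had 20 counts or more and at least 4 times the third, which also leaves out barcodes with 3 strong hashtags; doublets within a population were not removed. The cell filter was at least 500 genes and 20% or less mitochondrial (MT-) UMIs, and populations 50 cells or more; 617 passing cells had no pair. No barcode was listed more than once, and columns of other samples numbered 0. UMIs were summed per population and divided by the total (per 1000000, CPM). Levels have exact Poisson intervals, shares exact Clopper-Pearson intervals, ratios exact conditional binomial intervals and ratios to sums delta-method intervals. Cell correlations used log1p of counts per 10000, population correlations log2(CPM + 1). Scripts were tested on simulated data. The median cell of a population had 6434.5 to 9450 UMIs, and 3 counts, the limit that a count of 0 allows, were 0.593 to 3.92 CPM.

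The members, gene lists, populations set side by side and alternatives were chosen with earlier results of these data known. Named genes were all members, list genes past 4-fold with 30 UMIs or more, the 10 genes most like ICAM1, and CXCL10, GBP1, NFKBIA and TNFAIP3; others named were chosen after their values were seen. Single-gene results of 2 listed genes are not reported here. Coordinates came from GENCODE 29 and promoters from RefSeq. Statistics used scipy 1.17.1 and numpy 2.4.6 under Python 3.11.15, tables pandas 2.3.3, and plots matplotlib 3.10.9. No p-value was computed.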

Additional observations from a re-analysis of the deposited data

Results flagged for a closer look

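ICAM1 was also read in barcodes outside the cell filter, those with more than 20% mitochondrial UMIs, of which 4077 carried a hashtag pair of the 13 populations. In these barcodes ICAM1 had 942 CPM (878 to 1009) in HTO2+HTO8 and 1329 CPM (1271 to 1388) in HTO2+HTO9, far above the limit that a count of 0 allows. The other HTO2 populations had 337 CPM (HTO2+HTO5), 1046 CPM (HTO2+HTO6) and 874 CPM (HTO2+HTO7), and the rest 45.0 to 157 CPM. HTO2+HTO9 was again the highest, but HTO2+HTO6 lay above HTO2+HTO8, unlike in the cells that passed. VCAM1 in these barcodes had 491 CPM in HTO2+HTO8 and 520 CPM in HTO2+HTO9, against 877 CPM in HTO2+HTO6 and 805 CPM in HTO2+HTO7, so that HTO2+HTO8 and HTO2+HTO9 again lay under HTO2+HTO6 and HTO2+HTO7; the order within each of these pairs was not that of the cells that passed.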

How the results depend on the processing

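ICAM1 over the mean of the 6 sums stayed above 1 and VCAM1 under 1, in both HTO2+HTO8 and HTO2+HTO9, in all 8 other settings of cell filter, hashtag rule and scale. That mean includes the smaller sums with HTO2+HTO5. Ratios to each single sum are given for none of these 8 settings, so whether HTO2+HTO9 stayed above all 6 is not shown. The stricter cell filter kept 4036361 of 29032973 UMIs. With it, ICAM1 over the mean of the sums was 1.12 in HTO2+HTO8 and 1.25 in HTO2+HTO9. Over the highest other population ICAM1 was 0.916 (reversed) and 1.02. Under the same filter VCAM1 in HTO2+HTO9 was 0.578 over the sums, and over the highest other population VCAM1 was 0.494 in HTO2+HTO8 and 0.349 in HTO2+HTO9. With at most 50% mitochondrial UMIs, HTO2+HTO8 had 1.01 for ICAM1 over the highest other population, and 0.762 (sums) and 0.590 (highest) for VCAM1. With no filter these were 1.01, 0.764 and 0.588, and ICAM1 in HTO2+HTO9 was 1.32 over the highest. The median-of-ratios scale shifted all genes by 0.18 (log2) in HTO2+HTO8, 0.12 in HTO2+HTO9 and -0.12 in HTO3+HTO6. It put ICAM1 at 1.35 (sums) and 1.16 (highest) in HTO2+HTO8 and 1.66 (sums) in HTO2+HTO9. The cause of these moves was not tested. Genes past the fold numbered 4060; they were 1862 with a minimum of 100 UMIs and 9319 at 2-fold, and 655 with a minimum of 300 UMIs, an alternative chosen after seeing the data. Of the 10 genes most like ICAM1, 3 stayed by Spearman correlation and 5 with a minimum of 1000 UMIs. The median correlation of ICAM1 with VCAM1 over cells was 0.164, and 0.108 after thinning. Of 91 member levels, 52 left their counting interval under the stricter filter and 2 to 17 under the 7 other settings. No paired analysis was possible because the data are 1 library and no test was made; for the same reason no replicate could be left out. Depth limits ICAM4 and ICAM5, which have few UMIs, and the order of ICAM2, ICAM3 and CD58.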
